A study of Mus musculus with 192 samples.

Results

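The hindbrain of hemizygous mice carrying a human amylin transgene was compared with that of nontransgenic mice at the post-diabetic stage, in tissue collected in the afternoon. The comparison used the pools labelled T3 hindbrain, PM, of the hemizygous (HEM) and nontransgenic (NON) genotypes whose 3 reference genes had a geometric mean count of at least 1000. This gave 6 of the 192 RNA pools of the series, 3 HEM and 3 NON, since 1 of 4 NON pools (5/6) had a reference mean of 511 counts and was left out.

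The series measured 43 target genes of amylin, insulin and leptin signalling on the nCounter platform, which counts barcoded probes bound to RNA without amplification, in 4 brain regions, 3 genotypes and 3 stages. All animals were male mice of the L44 line on the FVB/n background. The transgene encodes triprolyl-human amylin, a form of the hormone with proline substitutions that reduce its aggregation, and the rat insulin 2 promoter drives it, so that it is expected in pancreatic beta cells. HEM mice carry the transgene from 1 parent and homozygous (HOM) mice from both, and all were bred from HEM pairs, so the NON mice also had transgenic parents. Mice ate standard chow, and the labels give no treatment. T1, T2 and T3 are the prediabetic stage, the onset of diabetes and the stage when blood glucose had returned to normal, and the mice compared here were 401 to 408 days old. The T1 and T2 mice used further on were younger, and ages at T2 differed between pools. A comparison of T3 with T1 or T2 is therefore also one of age. The hindbrain samples included the cerebellum.

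A pool holds equal RNA of up to 2 mice of 1 genotype and collection time and is named here by its sample numbers. The HEM pools were 7/9, 8/10 and 11/13, with 6 mice, and the NON pools were 1/2, 8 and 12, with 4 mice, because 8 and 12 each hold 1 mouse. For T3 PM, the legend of the study's expression figure gives fewer HEM and NON pools than the hindbrain labels do. The groups used here may therefore differ from those of the study's own analysis. The labels mark the mice of HEM 7/9, HEM 11/13, NON 1/2 and NON 8 as previously diabetic, and those of HEM 8/10 and NON 12 as not. The study describes milder and shorter hyperglycaemia in some NON mice as well.

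Amylin is secreted by beta cells together with insulin and acts on the hindbrain, where neurons of the area postrema carry its receptors. Those receptors pair the calcitonin receptor with a receptor activity modifying protein, and like other G protein-coupled receptors they can be switched off by receptor kinases and beta-arrestins. Insulin signals through its receptor, the insulin receptor substrates, PI3-kinase and Akt, and leptin signals through its receptor, Jak2 and Stat3, with Socs3 as a feedback inhibitor of both.

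The depth of the groups differed. The reference mean was 6350, 6308 and 6851 counts in the HEM pools 7/9, 8/10 and 11/13. It was 1898, 1178 and 5022 counts in the NON pools 1/2, 8 and 12. No NON pool reached the lowest HEM pool, and the group means of 6503 ± 302 (SD, n = 3) and 2700 ± 2044 (SD, n = 3) differed 2.41-fold. The positive control probes, which report hybridisation and not the RNA added, had means of 593.8 and 542.7 counts, a ratio of 1.09. The total over the 43 targets ran from 152145 to 187094 counts in HEM and from 28779 to 135717 in NON. In NON 8 only 34 of 43 targets exceeded background, which is the mean of the negative control probes plus 2 SD in each pool, against 40 to 43 in the other 5 pools. All values below are normalised counts, the count of a probe per 1000 counts of the reference mean, and a fold-change is therefore relative to the reference genes. Fewer cells of a type and less RNA per cell cannot be told apart in such pools.

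Of the 43 targets, 1 differed between HEM and NON (2.33%), and no target passed the further limit of a 1.5-fold or a 2-fold change. Arrb1 was the gene called, higher in HEM (edgeR's quasi-likelihood F test, Benjamini-Hochberg adjusted). At an unadjusted p under 0.05 there were 5 targets (11.6%), Arrb1 and Gsk3b higher and Pik3r1, Socs3 and Ramp1 lower in HEM. Over all targets 21 had a positive and 22 a negative log2 fold-change, with a median of -0.01. The HEM pools all exceeded the NON pools for 1 target (2.33%) and all fell short of them for 4 (9.3%), which were Pik3r1, Socs3, Ramp3 and Hcrt. Gsk3b, Pik3r1, Ramp1 and Ramp3 are named here because of these values. The plot of fold-changes by gene list shows how few targets stood clear of 0.

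**Figure D1:**
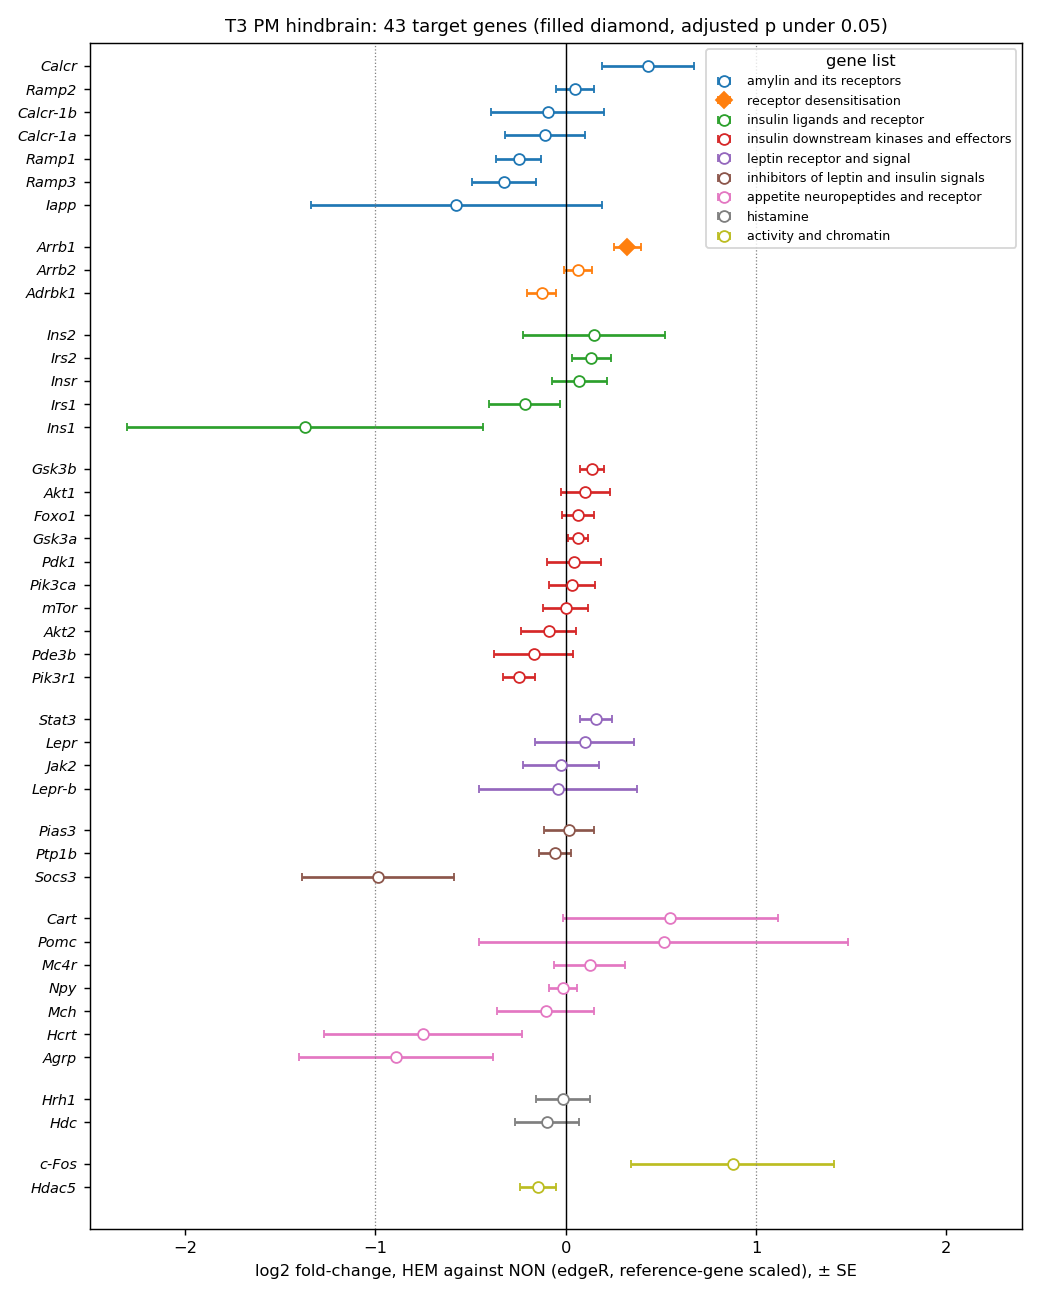
Log2 fold-change of HEM against NON in the T3 PM hindbrain for the 43 targets (x axis, ± SE from edgeR, reference-gene scaled), grouped and coloured by gene list, with dotted lines at a 2-fold change. Arrb1 is the only filled symbol (adjusted p under 0.05), and the targets with the widest bars, Ins1, Pomc and Iapp, are those with few counts or 1 pool apart.

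Arrb1 encodes beta-arrestin 1, which uncouples activated G protein-coupled receptors from their G proteins and acts as a signalling scaffold. Its normalised count was 2027, 1997 and 2170 in HEM 7/9, 8/10 and 11/13. It was 1533, 1508 and 1904 in NON 1/2, 8 and 12. The groups did not overlap, and NON 12, the NON pool with the deepest counts, came closest to the HEM pools. The means were 2065 ± 92.3 (SD, n = 3) in HEM and 1648 ± 222 (SD, n = 3) in NON, a 1.25-fold difference (log2 fold-change 0.32, SE 0.07, adjusted p = 0.00523 by edgeR's quasi-likelihood F test, Benjamini-Hochberg adjusted). The left-out pool NON 5/6 had 1296 and the only HOM PM pool, 1/11, had 1775, between the NON and the HEM means and below every HEM pool. The reference mean of HOM 1/11, 3652 counts, also lay between those of NON (2700) and HEM (6503).

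The Arrb1 call depended on single pools, on 1 reference gene and on the spread of other groups. Without HEM 11/13, NON 1/2 or NON 8 its log2 fold-change was 0.29, 0.27 and 0.26 and its adjusted p 0.0573, 0.0801 and 0.0915. Without 1 of the reference genes the log2 fold-change was 0.23 and the adjusted p 0.0627 (edgeR's quasi-likelihood F test, Benjamini-Hochberg adjusted). When the 6 pools were fitted alone the fold-change was still 0.32 and the adjusted p 0.519 (edgeR's quasi-likelihood F test, Benjamini-Hochberg adjusted, range over 22 alternatives 1.9e-05 to 0.526). The log2 fold-change was positive under all 22, from 0.12 to 1.35, where the top value came from scaling to the positive control probes, and 14 of the 22 called the gene. Of the 22, 2 were chosen after the data were seen, and alternatives that use a split by sample number, described further on, are not among them.

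**Figure D2:**
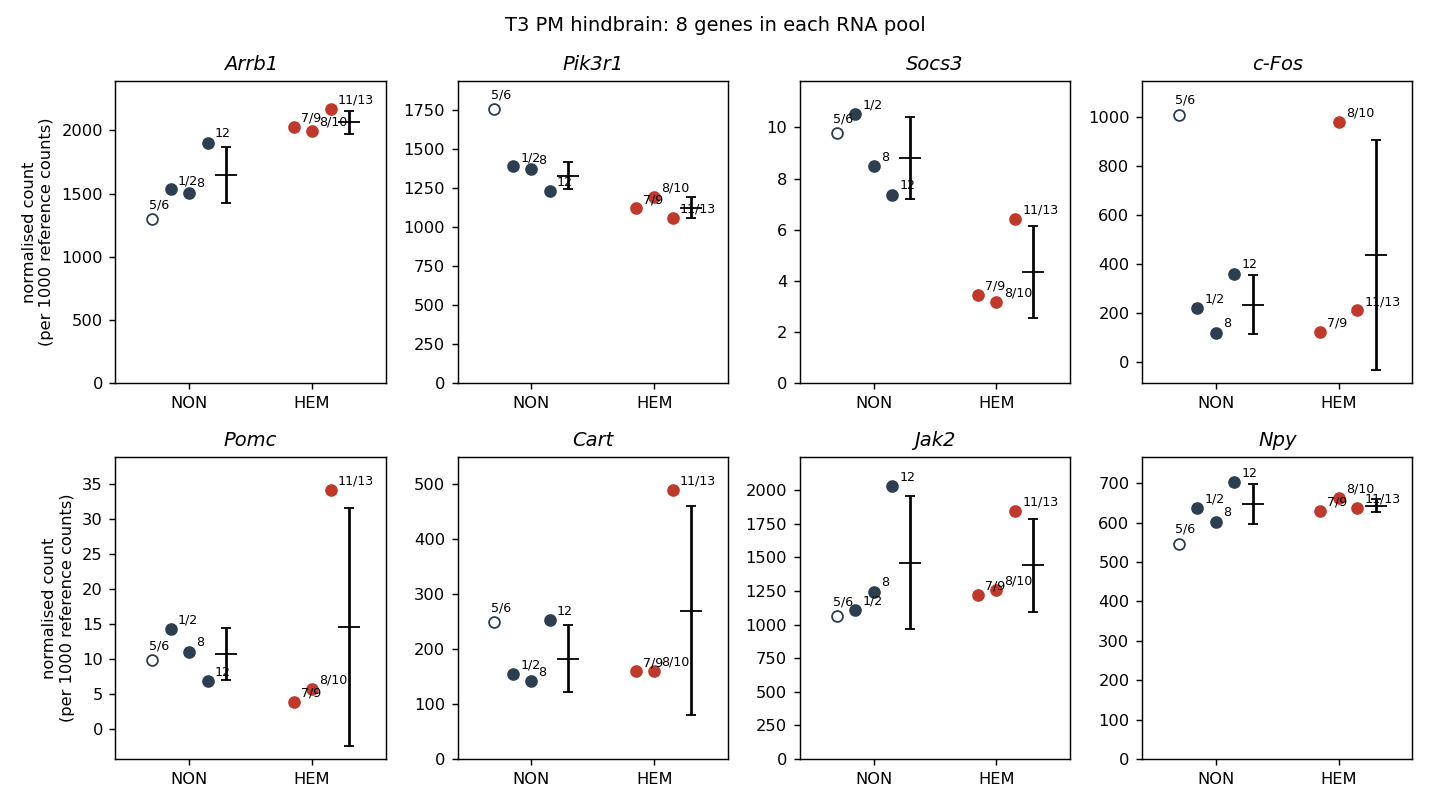
Normalised count (y axis, per 1000 reference counts) of 8 genes in each NON and HEM pool of the T3 PM hindbrain, with pool numbers, and the mean ± SD of the 3 kept pools beside each group in black. The open symbol is NON 5/6, which was left out for its low reference level. The groups separate for Arrb1, Pik3r1 and Socs3, while 1 HEM pool stands apart for c-Fos (8/10) and for Pomc and Cart (11/13).

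The Arrb1 values were also ordered like the reference level among NON pools alone. In order of reference mean, the 6 NON pools of the T3 hindbrain, AM and PM and including the shallow ones, had 267.1, 510.8, 1178, 1898, 2298 and 5022 reference counts. Their Arrb1 normalised counts in the same order were 1089, 1296, 1508, 1533, 1622 and 1904. Arrb1 was thus higher at every step with no transgene present, and the deepest NON pool had 1.75 times the value of the shallowest. This order is a description of 6 pools, since Arrb1 was singled out because it was called and the reference level is also what its counts were divided by. Of the 43 targets, 11 had a correlation with the reference level over these pools at an unadjusted p under 0.05 and 0 at an adjusted one (exact permutation test of Pearson's r). With 6 pools that test has 720 permutations, and Arrb1, with the lowest p of 0.00139, had an adjusted p of 0.0597. A single target could thus not pass adjustment, and these counts decide nothing. With the log2 reference level added to the model, an alternative chosen after the data were seen, the log2 fold-change of Arrb1 was 0.12 and its adjusted p 0.526 by edgeR's quasi-likelihood F test, Benjamini-Hochberg adjusted (range over the 22 alternatives 1.9e-05 to 0.526). Akt1 was then the 1 target called (0.48, adjusted p = 0.0431, by the same test), and no target was called when the shallow pools were added. Since no HEM pool was as shallow as any NON pool, genotype and reference level cannot be told apart in these 6 pools.

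**Figure D3:**
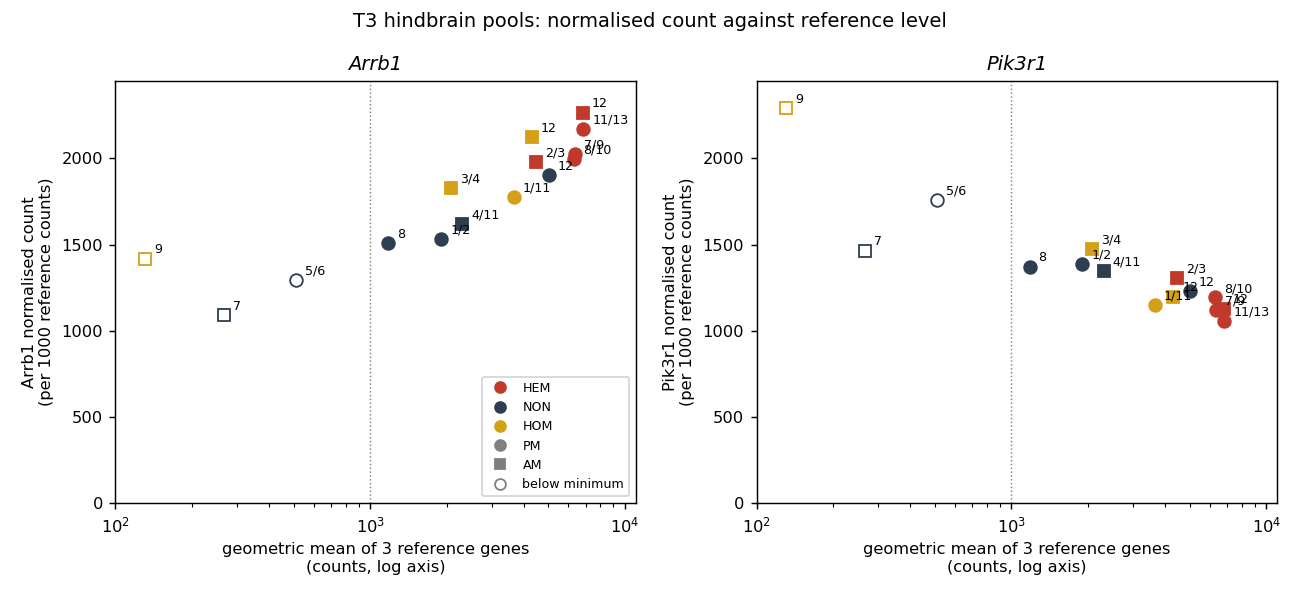
Normalised count of Arrb1 and of Pik3r1 (y axes, per 1000 reference counts) against the geometric mean count of the reference genes (log x axis) in all 15 T3 hindbrain pools, with AM pools as squares, PM pools as circles and pools under 1000 reference counts open. Along the axis Arrb1 is higher and Pik3r1 mostly lower in the NON pools as well as across the genotypes, with the HEM PM pools at the right end.

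The other members of the desensitisation list were not called. Arrb2, beta-arrestin 2, had means of 839 ± 32.8 in HEM and 800.8 ± 57.3 in NON (SD, n = 3 each), with overlapping groups. Adrbk1, the receptor kinase GRK2 that marks active receptors for arrestin, had a log2 fold-change of -0.13 and overlapping groups. Of the 3 members of this list, 1 was called, against 1 of 43 targets.

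None of the 7 genes of amylin and its receptors was called, and their median log2 fold-change was -0.11. Calcr, the calcitonin receptor at the core of every amylin receptor, had 39.7, 47.4 and 54.9 in HEM 7/9, 8/10 and 11/13. It had 33.2, 17.8 and 50.4 in NON 1/2, 8 and 12. The low value of NON 8 rests on 21 counts, and the groups overlapped (log2 fold-change 0.43, SE 0.24, adjusted p = 0.434 by edgeR's quasi-likelihood F test, Benjamini-Hochberg adjusted). Its size rested on single pools, with a log2 fold-change of 0.16 without NON 8 (adjusted p = 0.837) and of 0.86 without NON 12 (adjusted p = 0.0304, by the same test, range over alternatives 0.0304 to 0.99). With the reference level in the model it was -0.02.

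The receptor activity modifying proteins give the amylin receptor subtypes their identity. Ramp1 had 861.7, 834 and 845.4 in HEM, against 1126, 1114 and 778.3 in NON, so that NON 12 fell below all HEM pools and the other NON pools above (log2 fold-change -0.25). Ramp1 was also lower in the deeper NON pools, and with the reference level in the model its log2 fold-change turned to 0.15. Ramp3 had 80, 81.2 and 79.3 in HEM and 104.3, 114.6 and 83.6 in NON. The 3 kept pools of each group did not overlap, with NON 12 again nearest to HEM, but the left-out pool NON 5/6 had 68.5, below every HEM pool (log2 fold-change -0.32, SE 0.17, adjusted p = 0.417 by edgeR's quasi-likelihood F test, Benjamini-Hochberg adjusted). Ramp2 showed means of 344.6 and 333.4. The isoform probes Calcr-1a and Calcr-1b had raw counts of 7 to 69 in the 6 pools, and log2 fold-changes of -0.11 and -0.09. Calcr and Calcr-1a are listed with the same RefSeq transcript, so they are not independent genes.

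Iapp, the amylin gene itself, was near background. Its raw counts were 24, 11 and 37 in HEM and 17, 3 and 23 in NON, and it exceeded background in 4 of the 6 pools. The mouse gene and the human transgene cannot be told apart with this probe, and the HEM pools showed no excess (normalised means 3.64 ± 1.83 and 5.36 ± 3.28, SD, n = 3 each). Ins1 and Ins2, the mouse insulin genes, were likewise above background in 4 of 6 pools each. Ins1 varied between NON pools, with 12.7 in NON 1/2 against 2.55 and 2.79 in NON 8 and NON 12, and 2.05, 0.793 and 3.8 in HEM (log2 fold-change -1.37, SE 0.94, and -0.28 without NON 1/2). The 3 beta cell genes together summed to 10.7, 5.87 and 12.7 in HEM and 24.8, 8.49 and 11.2 in NON, with none at 0, and their part in other results was not tested.

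In the insulin pathway no target was called among the 5 ligand and receptor genes (median log2 fold-change 0.07) or the 10 downstream genes (median 0.04). Insr, the insulin receptor, had 315.8, 336.1 and 472.3 in HEM and 323, 304.7 and 438.4 in NON. The high value in each group came from the pool of the highest sample numbers, and the groups overlapped (log2 fold-change 0.07). Irs1 and Irs2, the docking proteins of the receptor, had log2 fold-changes of -0.22 and 0.14, neither past the test.

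Pik3r1, the regulatory subunit of PI3-kinase, had 1120, 1192 and 1058 in HEM. It had 1389, 1370 and 1230 in NON. All HEM pools lay below all NON pools, a log2 fold-change of -0.24 (SE 0.08), which did not pass adjustment (adjusted p = 0.161 by edgeR's quasi-likelihood F test, Benjamini-Hochberg adjusted). Across the NON pools it was also lower in the deeper ones, though not at every step, from 1464 and 1758 in the shallow pools AM 7 and PM 5/6 to 1230 in NON 12, and with that level in the model its log2 fold-change was -0.02. Gsk3b, a kinase that Akt inhibits, had 2133, 2170 and 2473 in HEM and 1984, 1981 and 2188 in NON, so that NON 12 exceeded both of the lower HEM pools (log2 fold-change 0.14, adjusted p = 0.393, by the same test). The catalytic subunit Pik3ca, Akt1, Akt2, Gsk3a, the transcription factor Foxo1, mTor and the phosphodiesterase Pde3b had log2 fold-changes between -0.17 and 0.10, with overlapping groups. The probe named Pdk1 matches the RefSeq transcript of a pyruvate dehydrogenase kinase, while the phosphoinositide-dependent kinase upstream of Akt carries the symbol Pdpk1, and Pdk1 gave 0.04.

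Among the 4 leptin receptor and signal genes none was called (median log2 fold-change 0.04). Stat3, the transcription factor that leptin activates, had 588.8, 619.2 and 683.4 in HEM and 465.8, 588.2 and 637.1 in NON (log2 fold-change 0.16, SE 0.08, overlapping groups). Jak2, the kinase bound to the leptin receptor, had 1223, 1257 and 1843 in HEM and 1111, 1246 and 2030 in NON. Lepr-b, the signalling form of the receptor, had 9.13, 10.3 and 28.9 in HEM and 16.9, 5.94 and 23.9 in NON. For both genes HEM 11/13 and NON 12 stood above the other pools of their group by more than the groups differed (log2 fold-changes -0.02 and -0.04).

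Socs3, the feedback inhibitor of leptin and insulin signals, was lower in each HEM pool than in any NON pool. Its normalised count was 3.46, 3.17 and 6.42 in HEM 7/9, 8/10 and 11/13. It was 10.5, 8.49 and 7.37 in NON 1/2, 8 and 12, and 9.79 in the left-out NON 5/6. The means were 4.35 ± 1.8 and 8.8 ± 1.61 (SD, n = 3 each), a log2 fold-change of -0.98 (SE 0.40) that did not pass adjustment (adjusted p = 0.296 by edgeR's quasi-likelihood F test, Benjamini-Hochberg adjusted). The probe counts behind it were small, 22, 20 and 44 in HEM and 20, 10 and 37 in NON, and the 10 counts of NON 8 did not exceed that pool's background of 11.7. Ptp1b, the phosphatase of both receptors, and Pias3, an inhibitor of Stat3, had log2 fold-changes of -0.06 and 0.02, and none of these 3 inhibitors was called.

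The 7 appetite genes held no call either (median log2 fold-change -0.01). Npy, which stimulates feeding, had 629.9, 661.7 and 636 in HEM and 638.1, 601.7 and 702.4 in NON, with overlapping groups (log2 fold-change -0.01, SE 0.07). Pomc, the precursor of the satiety peptide alpha-MSH, had 3.78, 5.71 and 34.2 in HEM and 14.2, 11 and 6.77 in NON. HEM 11/13 lay above all NON pools and the other HEM pools below them. Without HEM 11/13 the log2 fold-change of Pomc went from 0.51 to -1.10. Cart, which is coexpressed with Pomc and suppresses feeding, had 159.1, 160.9 and 488.8 in HEM and 154.4, 141.7 and 252.1 in NON. The same pool, HEM 11/13, was high for Cart, and without it the log2 fold-change went from 0.55 to -0.20.

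Agrp and Hcrt, peptides of hypothalamic neurons that promote feeding and wakefulness, had raw counts of 7 to 41 and of 5 to 25. Agrp had 3.94, 5.87 and 5.98 in HEM and 16.9, 5.94 and 6.77 in NON, with NON 1/2 apart (log2 fold-change -0.89, and -0.30 without that pool). Hcrt had 3.78, 2.38 and 3.65 in HEM and 8.43, 4.24 and 4.18 in NON, so that the groups did not overlap, and the left-out NON 5/6 had 5.87 (log2 fold-change -0.75, SE 0.52, and -0.36 without NON 1/2), with 4 of 6 pools above background. The melanocortin receptor Mc4r and the peptide Mch had log2 fold-changes of 0.13 and -0.11.

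As a check of the tissue, Hcrt and Mch, which mark neurons of the lateral hypothalamus, were 32.2 and 210.9 times as high in the 5 T3 PM midbrain pools, which include the hypothalamus, as in these 6 hindbrain pools (ratio of medians). Pomc and Agrp were 5.4 and 3.6 times as high there and Hdc 1.26 times. No target of the panel defines the hindbrain. The 5 hypothalamic markers summed to 71.3, 72.3 and 103.1 in HEM and to 107.5, 78.1 and 82.2 in NON, with none at 0 and Hdc giving the most counts in every pool, and their part in the results was not tested.

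The 2 histamine genes, Hdc and the receptor Hrh1, had log2 fold-changes of -0.10 and -0.01. Hdac5, a histone deacetylase, had -0.14. The immediate early gene c-Fos, which neurons switch on when they fire, had 122.7, 976.6 and 211.4 in HEM 7/9, 8/10 and 11/13. It had 223.4, 120.5 and 360.4 in NON 1/2, 8 and 12. HEM 8/10, with 6160 raw counts, stood far above the other 5 pools, and the groups otherwise overlapped (log2 fold-change 0.88, SE 0.53, adjusted p = 0.434 by edgeR's quasi-likelihood F test, Benjamini-Hochberg adjusted). Without HEM 8/10 the log2 fold-change was -0.51. The left-out pool NON 5/6 had a c-Fos value of 1008, slightly above HEM 8/10.

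A second difference cut across genotype. The pools of the T3 hindbrain were split by sample number, at a number chosen after the values were seen, so that it is a description with no test. Of the 12 pools above the reference minimum, 4 held only samples numbered 11 or more (HEM 11/13, HEM AM 12, NON 12 and HOM AM 12) and 6 only samples numbered 10 or less. For 12 of 43 targets (27.9%) every pool of the first kind lay above every pool of the second, and for none below. These 12 were Lepr-b, Lepr, Pde3b, Jak2, Insr, Pdk1, Pik3ca, Pias3, Calcr, mTor, Stat3 and Gsk3b, named after their values were seen. The pools of higher numbers had reference means of 4308 to 6851 and those of lower numbers 1178 to 6350. Jak2, Pik3ca, Pde3b, Stat3, mTor and Pdk1 are also among the targets correlated with the reference level over the NON pools, before adjustment. The part of the reference level in this split was not tested.

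Jak2 ranged from 1111 to 1296 in the pools of lower numbers and from 1843 to 2416 in those of higher numbers, a 1.61-fold ratio of medians. Lepr ranged from 109.5 to 148.8 and from 236 to 285.1, a 1.87-fold ratio. The 2 pools that mixed both kinds of samples lay between them for Jak2, at 1448 and 1496, but for Lepr 1 of them, at 144, lay within the range of the lower numbers, and for mTor 1 lay below that range, at 443.9. Across the 31 hindbrain pools of T1 and T2, Jak2 ran from 2099 to 2830, so the pools of higher numbers were nearer to those stages.

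**Figure D4:**
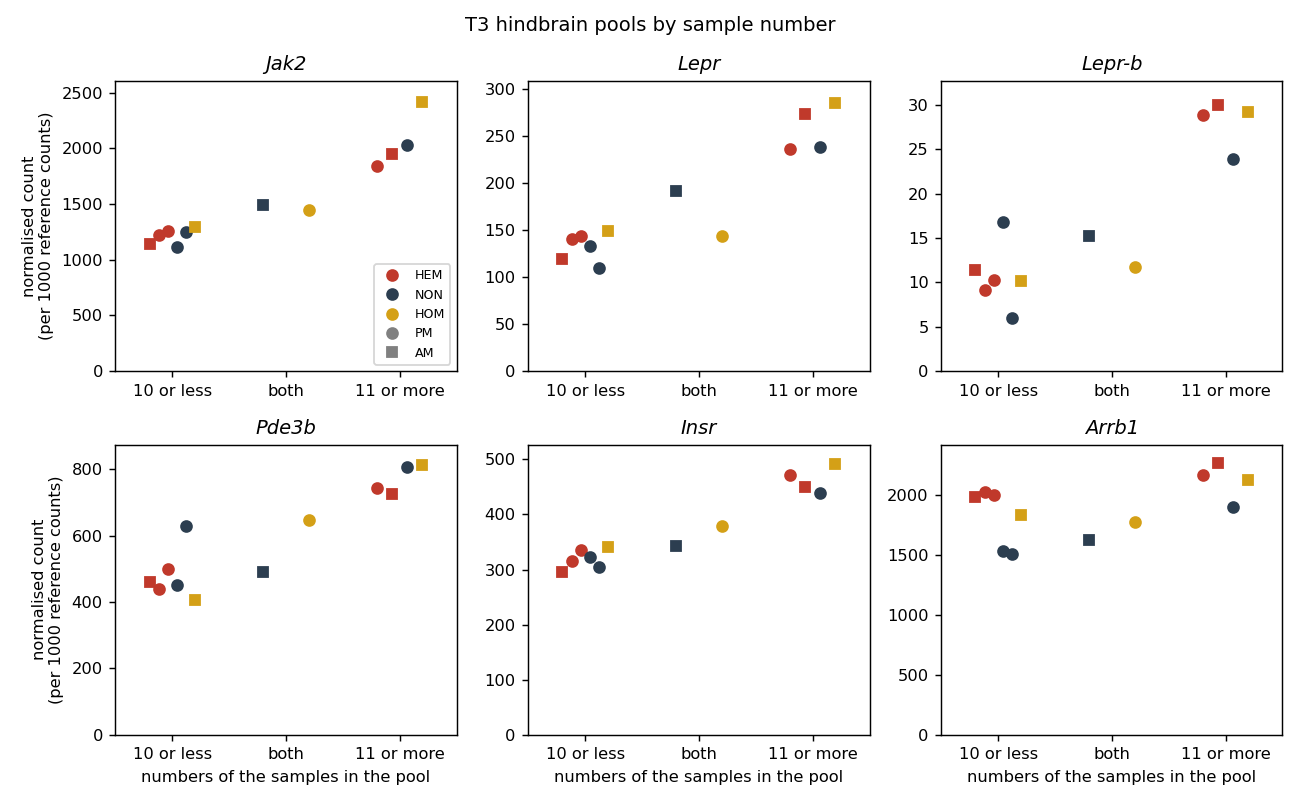
Normalised count (y axes, per 1000 reference counts) of 6 genes in the 12 T3 hindbrain pools above the reference minimum, by the numbers of the samples in the pool (x axis), coloured by genotype, with AM pools as squares and PM pools as circles. Jak2, Lepr, Lepr-b, Pde3b and Insr are higher in all 4 pools of samples numbered 11 or more in each genotype, whereas for Arrb1 the pools of both kinds overlap.

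HEM and NON each had 1 of 3 pools of the higher numbers, so the split lies within both groups. With the share of such samples as a covariate, the log2 fold-changes were 0.33 for Arrb1, 0.14 for Gsk3b and -0.24 for Pik3r1, close to those without it. That covariate was drawn from these same values, and Gsk3b is 1 of the 12 targets above, so its values are a description. Within the pools of lower numbers, 2 against 2, the log2 fold-change of Arrb1 was 0.40, and within those of higher numbers, 1 against 1, it was 0.19. The labels do not say what the numbers stand for, and extraction, run and cohort were not tested.

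The HEM effect on Arrb1 was set beside the same effect at other stages, times and regions. In the PM hindbrain its log2 fold-change was -0.02 (SE 0.08) at T1, with 2 HEM and 3 NON pools, and 0.17 (SE 0.06) at T2, with 3 and 5, where 0 (0.0%) and 2 (4.65%) of the 43 targets were called, Foxo1 and Ramp2 at T2. The 3 HEM pools of T2 ran from 2564 to 2647 for Arrb1, all above the 5 NON pools, which ran from 2205 to 2406. The same pools separated in this direction for Adrbk1, Foxo1, Gsk3b and Ramp2 as well, and in the other direction for Calcr. Arrb1 itself did not pass adjustment at T2 (adjusted p = 0.17 by edgeR's quasi-likelihood F test, Benjamini-Hochberg adjusted). The T3 effect exceeded that of T1 by 0.35 (SE 0.11) and that of T2 by 0.15 (SE 0.10). Neither difference passed the test (adjusted p = 0.105 and 0.396 by edgeR's quasi-likelihood F test, Benjamini-Hochberg adjusted), and no target differed between T3 and T1 or between T3 and T2 (0.0% in each), with 6 (14.0%) and 5 (11.6%) at an unadjusted p under 0.05. Leaving out NON 12 turned these counts of called targets into 2 and 4, Arrb1 among both.

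In the T3 hindbrain collected in the morning, Arrb1 was 0.39 higher on the log2 scale in 2 HEM pools than in the only NON pool above the reference minimum. With 1 NON pool that group has no spread of its own, and the fit assumed the spread of the other groups, so the value is given without its test. That NON pool, 4/11, had 2298 reference counts, again below both HEM pools, at 4483 and 6816. Against that pool other targets were higher still in HEM, among them mTor at 0.59, Akt2 at 0.57 and Akt1 at 0.54. Others were lower, such as Hcrt at -1.26 and c-Fos at -1.06. A shift of this size was thus not particular to Arrb1. The PM and AM effects on Arrb1 differed by -0.07 (SE 0.13).

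In the T3 PM midbrain Arrb1 had means of 2640 ± 162 (SD, n = 2) in HEM and 2686 ± 118 (SD, n = 3) in NON, a log2 fold-change of -0.03. The hindbrain effect exceeded the midbrain effect by 0.35 (SE 0.10, adjusted p = 0.0268 by edgeR's quasi-likelihood F test, Benjamini-Hochberg adjusted, range over 8 alternatives 0.000167 to 0.212), and Arrb1 was the 1 of 43 targets (2.33%) that differed. That call was lost without HEM 11/13, NON 1/2 or NON 8, where the difference was 0.31, 0.30 and 0.29, and with the shallow pools added, where it was 0.43. Pools HEM 7/9, HEM 8/10 and NON 1/2 are labelled in both regions, and the fit ignored this pairing. In the left and right cortices the log2 fold-changes were 0.00 and 0.01, and their difference from the hindbrain was not tested. Pik3r1 had 0.04, -0.12, -0.15 and 0.01 in the T1 PM, T2 PM and T3 AM hindbrain and the T3 PM midbrain, and its hindbrain effect was not shown to differ from any of them. In the T3 PM left and right cortices it had -0.14 and -0.03, and their difference from the hindbrain was not tested.

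**Figure D5:**
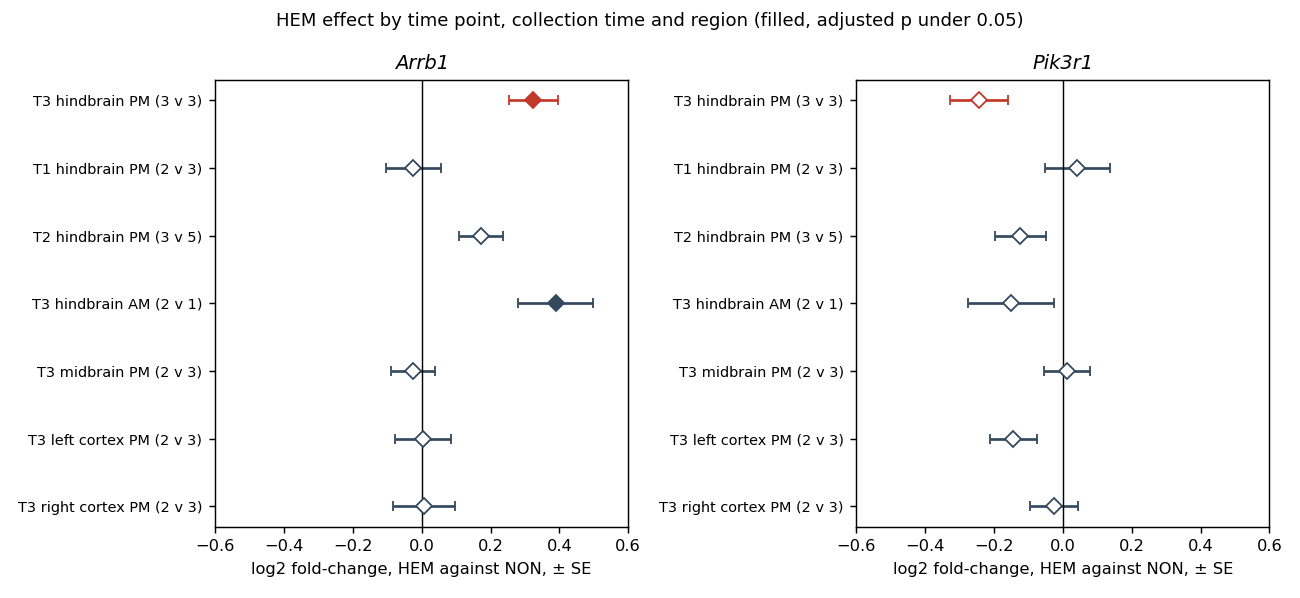
Log2 fold-change of HEM against NON (x axis, ± SE from edgeR) of Arrb1 and Pik3r1 in the T3 PM hindbrain (red) and in other stages, collection times and regions, with the number of HEM and NON pools in brackets and filled symbols for an adjusted p under 0.05. Arrb1 is 0.32 in the T3 PM hindbrain, 0.17 in the T2 PM hindbrain and 0.39 in the T3 AM hindbrain, where NON is 1 pool and the filled symbol rests on the spread of other groups, and lies between -0.03 and 0.01 elsewhere.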

How the data were processed

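RNA pools were hybridised to a custom nCounter CodeSet with 43 target, 3 reference, 6 positive and 8 negative control probes. The authors deposited raw counts per probe and pool, neither background-corrected nor normalised. Counts of 1 reference gene are not reported separately here. No genome build applies to probe counts. The 43 probe transcripts all matched RefSeq.

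Differential expression was tested in R 4.3.3 with edgeR 4.0.16 (quasi-likelihood, prior count 0.125), each pool's library size being its reference gene geometric mean and Benjamini-Hochberg adjustment over 43 targets. The fit held 40 hindbrain pools of known collection time and at least 1000 reference counts, with 1 mean per stage, genotype and collection time and 23 residual degrees of freedom. Differences between effects were contrasts of this model, with midbrain pools added for the regional one. The study's own tool, NanoStringDiff, was not used. By their labels, pools HEM 7/9, HEM 8/10 and NON 1/2 enter the regional contrast from both regions, and the fit ignored this pairing. The test was checked on simulated data. It called 0.8% of targets with no simulated difference. At simulated log2 sizes of 0.3, 0.6, 1 and 1.5 it called 32, 52, 84 and 76%, each of 50 simulated targets, some with few counts. The simulated counts were proportional to the reference level. The check therefore cannot show how often a target is called whose normalised count varies with that level.

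Pools were grouped by their labels, which name no run or extraction, so p-values measure the spread between pools of different mice. Among the 6 pairs of pools within a group none agreed within counting noise (lowest chi-square per degree of freedom 6.84). Members, gene lists and tests were chosen with earlier results of these data known. The genes named are those called, the 10 with the largest absolute log2 fold-change above background in at least 3 of 6 pools, and a list of genes the study discusses. Others are given in the account of their list. Alternatives used DESeq2 1.42.0, limma 3.58.1 (pseudocount 0.5), TMM, other scalings, covariates and pools. Tables and figures used Python 3.11.15, pandas 2.3.3, NumPy 2.4.6, SciPy 1.17.1 and matplotlib 3.10.9. Target totals ran from 28779 to 187094 counts per pool. The SEs were derived from the log2 fold-change and the F statistic of edgeR's test, and so include the spread between pools. For targets with few counts they need not match the p-value.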

Additional observations from a re-analysis of the deposited data

Results flagged for a closer look

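For Socs3, the fit gave a PM minus AM difference of the HEM effect in the T3 hindbrain of -4.04 on the log2 scale, which is not a measured difference between collection times. Its AM side has 1 NON pool, 4/11, with 2 Socs3 counts, not above that pool's background of 9.6, and the spread of that pool was taken from other groups. The 2 HEM AM pools averaged a normalised count of 7.38. The adjusted p of 0.0139 (edgeR's quasi-likelihood F test, Benjamini-Hochberg adjusted, range over 8 alternatives 0.00482 to 0.56) rests on that pool, and with the shallow pools added the difference was -1.16 and 0 targets were called by that test (6 at an unadjusted p under 0.05).

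For Arrb1, the HEM effect at T3 PM was larger in the hindbrain than in the midbrain, by 0.35 (adjusted p = 0.0268 by the same test and adjustment, range over 8 alternatives 0.000167 to 0.212). Of the 3 HEM hindbrain pools, 3 lay above all NON pools, whereas the midbrain means were 2640 and 2686. The reference level of HEM and NON differed 2.41-fold in these hindbrain pools, and its part was not tested for this difference. Some pools of both regions carry the same sample numbers, which the fit ignored.

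Among the 16 named genes, no pool stood apart by Dixon's criterion from the other NON PM hindbrain pools of T3 (4 pools, NON 5/6 included) or of T2 (5 pools), in 32 sets of values. With 4 or 5 values the criterion flags only very wide gaps, so its outcome decides little. The c-Fos value of 1008 in NON 5/6, against 120.5 to 360.4 in the other NON pools, was not flagged. The 3 HEM pools are too few for that criterion.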

How the results depend on the processing

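No paired analysis was possible because the HEM and NON pools of the T3 PM hindbrain share only 1 sample number, 8, and the labels do not tie equal numbers to a common litter, run or day. Each group had 3 pools, NON 8 had only 28779 target counts and some targets were near background. Their part in the precision was not tested. The filter on background removed no target. The reference level as covariate gave 1 call, Akt1. A count of 1 called target, Arrb1, held with TMM, DESeq2, both limma fits, background subtraction, the shallow pools added and previous diabetes as covariate. It was 0 when the 6 pools or the T3 hindbrain pools were fitted alone (3 targets in each at an unadjusted p under 0.05, edgeR), 0 without 1 of the reference genes (7 at that level) and 0 with the reference level as covariate and no minimum (3). The pools of samples numbered 11 or more are 1 against 1 and give values with no test of their own. It was 3 with the share of such samples as covariate, which was drawn from these same values and is no independent test. With the positive control probes as the scale it was 27, all higher in HEM, and the median log2 fold-change of all targets moved from -0.01 to 1.03, since that scale keeps the depth difference between the groups. Leaving out 1 pool gave 0 to 5 called targets, 0 without HEM 11/13, NON 1/2 or NON 8, and without NON 12 the 5 targets Arrb1, Calcr, Pik3r1, Ramp1 and Stat3. Where no value shows it, the cause was not tested.

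Leaving out 1 pool gave 0 to 2 called targets for the T3 and T1 difference, 0 to 4 for T3 and T2 (the higher count without NON 12 in both), 1 to 2 for PM and AM (2 without NON 1/2, adding mTor) and 0 to 2 for hindbrain and midbrain (2 without NON 12). The hindbrain and midbrain difference had 2 called targets with TMM, adding Gsk3b, and 0 with the shallow pools added, as did PM and AM (0, with 6 at an unadjusted p under 0.05 by edgeR).

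Signs turned mostly for targets near 0 or near background, apart from the scale of the positive control probes. That scale raised the fold-changes as a whole, so turns under it are no evidence on single targets. With the positive control probes, log2 fold-changes turned positive for Agrp (0.42), Calcr-1b (0.94), Hcrt (0.49), Iapp (0.63), Ins1 (0.039), Jak2 (0.88), Lepr-b (0.87), Npy (1.06), Pik3r1 (0.93), Ramp1 (1.03) and Socs3 (0.22). With the reference level as covariate, the values were Calcr -0.024, Iapp 0.045, Insr -0.22 and Ramp1 0.15, and with no minimum Agrp 0.024, Iapp 0.46, Insr -0.037, Lepr-b 0.0065 and Stat3 -0.15. Within the pools of samples numbered 10 or less Jak2 was 0.074, Npy 0.059 and Pomc -1.43, and within those of 11 or more Iapp was 0.24, Ins1 0.44, Lepr-b 0.27, Ramp1 0.12 and c-Fos -0.77. With limma Jak2 was 0.0038, Lepr-b 0.028 and Pomc -0.19, and weighted by mice Jak2 was 0.09 and Pomc -0.31. Background subtraction gave 0.23 for Calcr-1b and 0.089 for Lepr-b. With the shallow pools added Jak2 was 0.078, Lepr-b 0.056 and Npy 0.043. With previous diabetes as covariate Jak2 was 0.053 and Lepr-b 0.099, and with the share of higher sample numbers Jak2 was 0.0047. Without 1 of the reference genes in turn, Npy was 0.0086 in the first case, Insr -0.012 in the second, and Jak2 0.046, Lepr-b 0.010 and Npy 0.060 in the third. The PM and AM difference of Arrb1 was 0.11 with TMM.

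Leaving out 1 pool turned signs over these ranges of log2 fold-change: Calcr-1b -0.23 to 0.11, Cart -0.20 to 0.86, Insr -0.13 to 0.26, Jak2 -0.24 to 0.29, Lepr-b -0.78 to 0.44, Npy -0.062 to 0.051, Pomc -1.10 to 0.97 and c-Fos -0.51 to 1.33. The PM and AM difference of Arrb1 ran from -0.13 to 0.052. Of the pools left out, HEM 11/13 turned Cart, Pomc and Insr, HEM 8/10 turned c-Fos, Calcr-1b, Jak2 and Lepr-b, HEM 7/9 turned Jak2, Lepr-b and Npy, NON 12 turned Calcr-1b, Jak2, Lepr-b, Npy and that difference, and NON 8 turned Insr.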
